A study of Mus musculus with 12 samples.

Results

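Hair keratins and keratin-associated proteins build the hair shaft and the sheath that moulds it. They were taken as all probes named Krt25 to Krt28, Krt31, Krt32, Krt33a, Krt33b, Krt34 to Krt36, Krt71 to Krt75 or Krt81 to Krt86, and all whose gene name begins with Krtap. On the array, 90 probes of 74 genes bear such names. Of these, 52 probes of 44 genes were kept because the skin channel was well above background on 3 or more arrays, out of 28838 kept among 39429 probes in all. The 52 kept probes are called the members below.

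The study hybridised RNA from mouse skin (Cy5) against a universal mouse reference RNA (Cy3) on 12 two-colour arrays. All skin came from male C57BL/6 mice about 8 weeks old and was injected into the dermis, then taken 24 h later. There were 4 groups of 3 arrays. Incised skin, with a sutured incision of 1 cm, received PBS or 100 nmol promiR-29, a mimic of miR-29b, at 72 h after wounding, and intact skin received PBS or 100 nmol antimiR-29, an inhibitor of miR-29. The arrays of a group are labelled biological replicates, and no label ties an array to a particular phase of the hair cycle or body site. Values are log2 ratios of skin over reference, so they compare arrays for one probe and not one gene with another.

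The hair follicle cycles between growth (anagen), regression (catagen) and rest (telogen). During growth, dividing matrix cells at the base of the follicle move upwards and differentiate in concentric layers. Krt25 to Krt28 (type I) and Krt71 to Krt74 (type II) are the keratins of the inner root sheath, which guides the shaft, and Krt75 is the keratin of the companion layer around it. The hair keratins proper, Krt31 to Krt36 (type I) and Krt81 to Krt86 (type II), pair into the filaments of the shaft. Keratin-associated proteins are small cysteine-rich or glycine- and tyrosine-rich proteins that cross-link these filaments, encoded in gene clusters. In the resting follicle these genes are mostly silent, whereas the stem cell bulge and the dermal papilla persist.

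Many of these genes share a promoter word that the choice of members did not use. Whether the word bears on the members' values was not tested, and the genes printed are only some of the members. RefSeq promoters (GRCm38.p6, 250 bases before to 50 bases after the transcription start) matched 35 of the 44 genes with a kept probe. The word TATAAA, searched on the gene's own strand and lying wholly between 40 and 15 bases before the start, was present in 19 of these 35 (54.3%), against 2.22% of all 27025 promoters in the table. Among all 74 genes, 61 matched and 36 held it (59%). It was found in 8 of 15 hair keratin promoters and in 28 of 46 keratin-associated protein promoters. A match is a description of letters and not a site shown to be used. The following lines give the 60 bases before the start, 5′ to 3′ on the gene's strand, for inner root sheath keratins, a shaft keratin and keratin-associated proteins, and then for Krt72 and Krt84. Capitals mark TATAAA.
Krt71 (chr15:101743098-101743157, minus strand): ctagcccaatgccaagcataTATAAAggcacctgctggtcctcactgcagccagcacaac
Krt25 (chr11:99322952-99323011, minus strand): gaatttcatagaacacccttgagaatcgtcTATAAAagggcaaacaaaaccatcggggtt
Krt27 (chr11:99351119-99351178, minus strand): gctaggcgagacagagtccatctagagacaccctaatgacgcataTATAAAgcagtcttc
Krt28 (chr11:99374904-99374963, minus strand): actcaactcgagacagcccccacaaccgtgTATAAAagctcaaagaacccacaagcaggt
Krt31 (chr11:100050552-100050611, minus strand): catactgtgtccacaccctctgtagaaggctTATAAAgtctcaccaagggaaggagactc
Krtap16-3 (chr16:88962874-88962933, minus strand): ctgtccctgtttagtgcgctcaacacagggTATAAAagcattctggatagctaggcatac
Krtap8-1 (chr16:89487953-89488012, minus strand): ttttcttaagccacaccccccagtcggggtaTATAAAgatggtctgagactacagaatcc
Krtap17-1 (chr11:99993995-99994054, minus strand): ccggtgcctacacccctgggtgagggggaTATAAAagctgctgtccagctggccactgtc
Krt72 (chr15:101786521-101786580, minus strand): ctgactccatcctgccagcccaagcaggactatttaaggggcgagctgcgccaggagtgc
Krt84 (chr15:101532821-101532880, minus strand): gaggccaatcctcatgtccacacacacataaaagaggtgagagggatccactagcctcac

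In Krt71, Krt25 and Krt28 the word starts 40, 30 and 30 bases before the start, and in Krt27 it starts 15 bases before it, nearer than the window counted above. The stretches of Krt72 and Krt84 do not hold it. Words bound by LEF1 and TCF factors, the nuclear partners of beta-catenin in hair matrix cells, were also searched. The letters CTTTG followed by AA, AT, TA or TT lay on either strand within the 250 bases before the start in 8 of the 35 promoters (22.9%), against 14.9% of all promoters. Over all 61 matched genes the share was 36.1% (22 promoters).

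The treatments act through the miR-29 family, whose mature sequences (RefSeq, GRCm38.p6) share a seed, bases 2 to 8, marked in capitals.
miR-29a-3p: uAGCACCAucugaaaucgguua
miR-29b-3p: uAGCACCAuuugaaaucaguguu
miR-29c-3p: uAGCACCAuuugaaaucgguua
The complement of this seed, TGGTGCT, was in 0 of the 90 probe sequences, against 214 of all 39429 probes (0.543%). Each probe covers 60 bases only, so the rest of each transcript was not searched.

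The arrays were alike in depth of signal. Between 65.6% and 73.8% of probes were well above background, the ratio of signal to background was 3.63 to 4.99, and no probe was saturated. One array stood apart for these genes, intact PBS array 2, with 71.9% of all probes above background and a signal ratio of 4.63, both within the range of the others. The comparisons that use it are therefore given with and without it. In pieces of skin, fewer cells of a type and less RNA per cell cannot be told apart.

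On intact PBS array 2, 84 of the 90 probes were well above background, against 38 to 52 on the other 11 arrays. The median of the members, each centred on its own median over the 12 arrays, was 1.33 on that array in log2 units and between -0.09 and 0.07 on the others. Of the 52 members, 43 had their highest value there, while 9.31% of all probes did. A lead of more than 1 over the next array was seen for 27 members (0.27% of all probes, 74 probes) and a lead of more than 2 for 16 (0.131%, 36 probes). The other intact PBS arrays, with 41 and 52 probes above background, resembled the remaining groups in the members' median. Over all probes, however, intact PBS array 3 had the lowest median correlation within its group (0.918). It also held the highest value of the most probes (15.4%). Comparisons without intact PBS array 2 rest on arrays 1 and 3 of that group. The values of intact PBS array 2 describe 1 array, and no test was made of them.

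**Figure D1:**
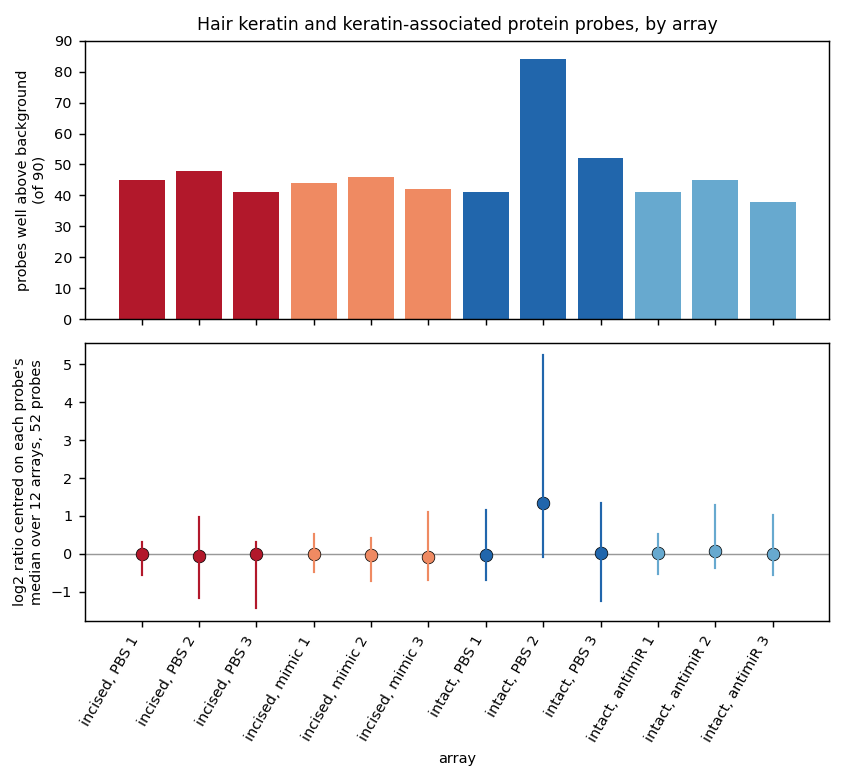
Upper panel: the number of the 90 hair keratin and keratin-associated protein probes well above background on each of the 12 arrays, coloured by group. Lower panel: the median (point) and the lowest and highest value (line) of the 52 members on each array, each probe centred on its median over 12 arrays (log2). Intact PBS array 2 has 84 probes above background and a median of 1.33, and the other arrays have 38 to 52 probes and medians between -0.09 and 0.07.

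The 38 probes that were not kept were, by the filter, above background on at most 2 arrays. Dim values on most arrays therefore follow from the filter, while it did not set which arrays were bright. Of these 38 probes, 33 were above background on intact PBS array 2, and for 24 of them it was the only such array. The like share over all left-out probes is not given here. Another 9 were above background on 2 arrays, of which it was always 1. Only 4 were above background on no array, and 1 probe, Krtap24-1, was above background on 1 other array. The log2 ratios of the 33 on intact PBS array 2 had a median of 2.05 (0.24 to 3.89), while the highest value of each of them on any other array had a median of 0.21 (-0.42 to 0.69). Examples, chosen after their values were seen, are Krt34, a shaft keratin, at 3.59 against at most 0.23 elsewhere, and Krtap22-2 at 3.89 against at most 0.69. In all, 30 genes had no kept probe, and 27 of them were above background on that array. The members therefore leave out many of the genes for which intact PBS array 2 was alone.

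Among the keratin classes, those of the inner root sheath had the highest medians on that array. The 4 type I members had a median of 4.04 there, centred as above, against -0.16 to 0.15 on the other 11 arrays, and the 4 type II members had 1.84 against -0.18 to 0.17.

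Krt71, the type II keratin that pairs with the type I keratins of the inner root sheath (probe at chr15:101564426-101564485, mm9), read 0.40, 0.47 and 1.04 on the incised PBS arrays and 0.53, 0.60 and 0.36 on the mimic arrays. It read 0.71, 5.96 and 0.92 on the intact PBS arrays and 0.88, 0.97 and 0.72 on the antimiR arrays. The value of 5.96 exceeded the next highest, 1.04, by far more than the spread of the other 11 arrays.

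Krt25 (probe from chr11:99177867 to 99178575, mm9) read 0.04, 0.16 and 0.43 with PBS and -0.03, 0.35 and 0.21 with mimic in incised skin. In intact skin it read 0.08, 5.31 and 0.61 with PBS and 0.11, 0.47 and -0.03 with antimiR. Its skin signal was well above background on 4 of the 12 arrays only, so that values near 0 elsewhere are those of a dim probe and the lead of intact PBS array 2 is understated.

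Krt27 reached 5.10 on intact PBS array 2 against at most 0.60 elsewhere, and Krt28 reached 4.21 against at most 1.45. Krt26 was less high there, at 0.95 against at most 0.22, and Krt73 reached 1.85 against at most -0.11. Krt74 was the exception among these sheath keratins, at 0.05 on that array within a range of -0.13 to 0.25 on the others. Its probe carries the accession of a non-coding RefSeq record. It had the narrowest range of all members together with Krtap10-10 and Krtap1-4, both keratin-associated proteins.

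Krt72, a type II keratin of the inner root sheath cuticle, behaved differently from Krt71. It read 2.21, 1.27 and 2.41 on the incised PBS arrays and 2.16, 1.72 and 2.18 on the mimic arrays. In intact skin it read 3.61, 4.08 and 2.61 with PBS and 2.49, 3.54 and 3.49 with antimiR. All 6 incised arrays lay at or below 2.41 and all 6 intact arrays at or above 2.49, with intact PBS array 2 the highest of them by a small margin.

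Krt75, the companion layer keratin, was not highest on intact PBS array 2. It read 0.55, 0.43 and 0.63 in incised skin with PBS and 1.02, 1.38 and 0.39 with mimic. In intact skin it read 1.62, 1.28 and 2.42 with PBS and 1.13, 2.37 and 1.02 with antimiR. The highest arrays were thus intact PBS 3 and antimiR 2, and the incised PBS arrays were all below every intact array.

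Keratins of the shaft were also high on intact PBS array 2, with medians of 1.53 for the 5 type I members and 1.30 for the 7 type II members, against ranges of -0.36 to 0.54 and -0.16 to 0.18 on the other arrays. Krt31, a type I keratin of the hair cortex, read 0.57, 0.59 and 0.46 with PBS and 0.33, 0.35 and 0.32 with mimic in incised skin. It read 0.50, 2.03 and 0.57 with PBS and 0.46, 0.52 and 0.49 with antimiR in intact skin. Apart from the value of 2.03, the 2 intact groups overlapped with each other and the 3 mimic arrays were the lowest.

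Krt33a had the second widest range of all members, from -0.27 to 5.24, with no other array above 0.45. Krt35 reached 3.52 and its next highest value was 1.83, on antimiR array 2. The 2 kept probes of Krt36, a shaft keratin, did not follow. They read 0.44 and 0.38 on intact PBS array 2, and had their highest values, 1.26 and 0.68, on incised PBS array 2 and intact PBS array 3.

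Among the type II shaft keratins, Krt86 read 3.71 on intact PBS array 2 and at most 0.03 elsewhere. Krt84, a type II hair keratin also known from the tongue (probe at chr15:101355458-101355517, mm9), read 0.40, 0.76 and 0.72 with PBS and 0.83, 1.15 and 0.50 with mimic in incised skin. In intact skin it read 2.03, 2.44 and 1.08 with PBS and 1.48, 0.64 and 1.47 with antimiR. Intact PBS arrays 1 and 2 were the highest, and the 3 incised PBS arrays were below all 3 intact PBS arrays. Krt81 read 2.45 on intact PBS array 2 and 2.38 on intact PBS array 1, against 1.29 to 2.03 on the others.

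The 3 probes of Krt85 disagreed. On intact PBS array 2 one read 3.46 against at most 0.24 elsewhere, another 0.99 against at most 0.77, and the brightest -0.09 within a range of -0.79 to 0.40. The sequence of that brightest probe matched the Krt81 probe at 51 of 57 aligned bases (89.5%). The Krt81 probe matched the Krt83 probe at 51 of 55 bases (92.7%), and values of Krt81 and of this Krt85 probe are uncertain for that reason. The Krt85 probe that read 3.46 maps to chr15:101261695-101261754 (mm9). That is nearer the Krt83 probe (chr15:101263556-101263615), whose accession RefSeq gives as Krt87, than the Krt85 probe that read 0.99 (chr15:101346117-101346176). Which gene the value of 3.46 belongs to is therefore uncertain too. In all, 8 members had an ungapped match of 80% or more to another of the 90 probes over at least 40 bases, 4 of them to a probe of another gene, which include Krtap19-4 and Krtap19-5.

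**Figure D2:**
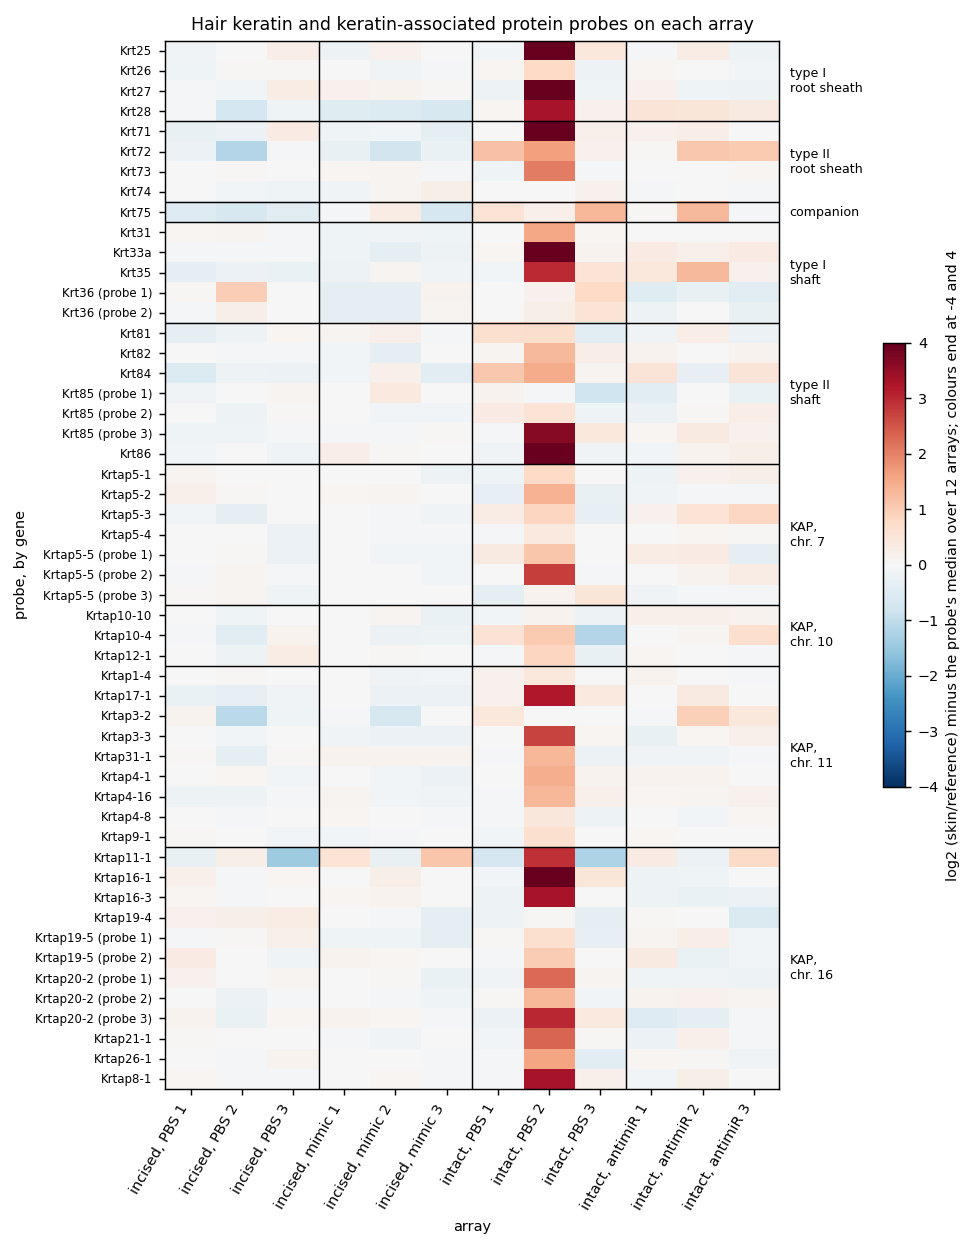
Log2 ratios of skin over reference for the 52 members (vertical) on the 12 arrays (horizontal), each probe centred on its median over the arrays; KAP stands for keratin-associated protein, lines separate classes and groups, and colours end at -4 and 4. In the column of intact PBS array 2 lie the highest values of 43 members, with Krt71, Krt25, Krt27, Krt33a, Krt86 and Krtap16-1 deepest, while Krt74, Krt75, Krt36 and Krtap19-4 do not stand out there.

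Keratin-associated proteins gave 31 members of 26 genes, out of 63 probes of 52 genes. Their median on intact PBS array 2 was 1.32, against -0.09 to 0.08 on the other arrays, and 27 of the 31 were highest there. Protein sequences were not used here, so they are described by gene cluster rather than by amino acid composition.

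The cluster on chromosome 16, which holds genes for glycine- and tyrosine-rich proteins, gave 12 members, of which 11 were highest on intact PBS array 2 and 9 led the next array by more than 1. Krtap16-3 read 0.47, 0.34 and 0.36 with PBS and 0.44, 0.52 and 0.39 with mimic in incised skin. It read 0.17, 3.66 and 0.39 with PBS and 0.18, 0.10 and 0.14 with antimiR in intact skin. All arrays but intact PBS 2 lay within 0.52 of 0. The probe named Krtap16-1, whose accession RefSeq now gives as Krtap19-2, read 4.41 there against at most 0.77, and Krtap8-1 read 3.47 against at most 0.40. Krtap11-1 varied on all groups, from 0.36 to 2.03 in incised skin with PBS and from 1.49 to 2.90 with mimic, besides 4.72 on intact PBS array 2. Krtap19-4 was the exception in the cluster, with 0.96 on that array and its highest value, 1.22, on incised PBS array 3. Krtap20-2 had 3 kept probes, which read 3.07, 1.38 and 3.62 on that array.

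On chromosome 11 there were 9 members, of which 8 were highest on intact PBS array 2 and 5 led by more than 1. Krtap17-1 reached 3.54 there against at most 0.73, and Krtap3-3 reached 3.06 against at most 0.56. Krtap4-1 read 1.86 against at most 0.54, and the bright Krtap4-8 probe read 0.04 against -0.63 to -0.34 elsewhere. Krtap3-2 did not follow, with 2.02 on that array and 2.95 on antimiR array 2.

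The cluster on chromosome 7, of cysteine-rich Krtap5 genes, gave 7 members of 5 genes, of which 6 were highest on intact PBS array 2 and 2 led by more than 1. Krtap5-2 read 0.65, 0.49 and 0.45 with PBS and 0.53, 0.54 and 0.42 with mimic in incised skin. It read 0.10, 1.84 and 0.15 with PBS and 0.29, 0.35 and 0.40 with antimiR in intact skin, so that intact PBS array 2 was the highest and the other 2 arrays of its group the lowest. The 3 kept probes of Krtap5-5 disagreed, with 1.60, 2.68 and 0.88 on that array. Of the 3 members on chromosome 10, none led by more than 1, and Krtap10-10 read 0.74 to 1.23 over all arrays. The 2 candidate probes on chromosome 1, Krtap28-10 and Krtap28-13, were above background on intact PBS array 2 alone and were not kept.

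Of the 25 genes with a probe that led by more than 1, 21 had a RefSeq promoter and 15 of those held TATAAA in the window counted above. Of the other 19 genes with a kept probe, 14 had a promoter and 4 held it. Krt27, whose word starts nearer than that window, counts as not holding it. Krtap16-1 and Krtap3-3, which also led by more than 1, did not hold it either. The split rests on the values of 1 array, and a link between word and values was not tested.

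**Figure D3:**
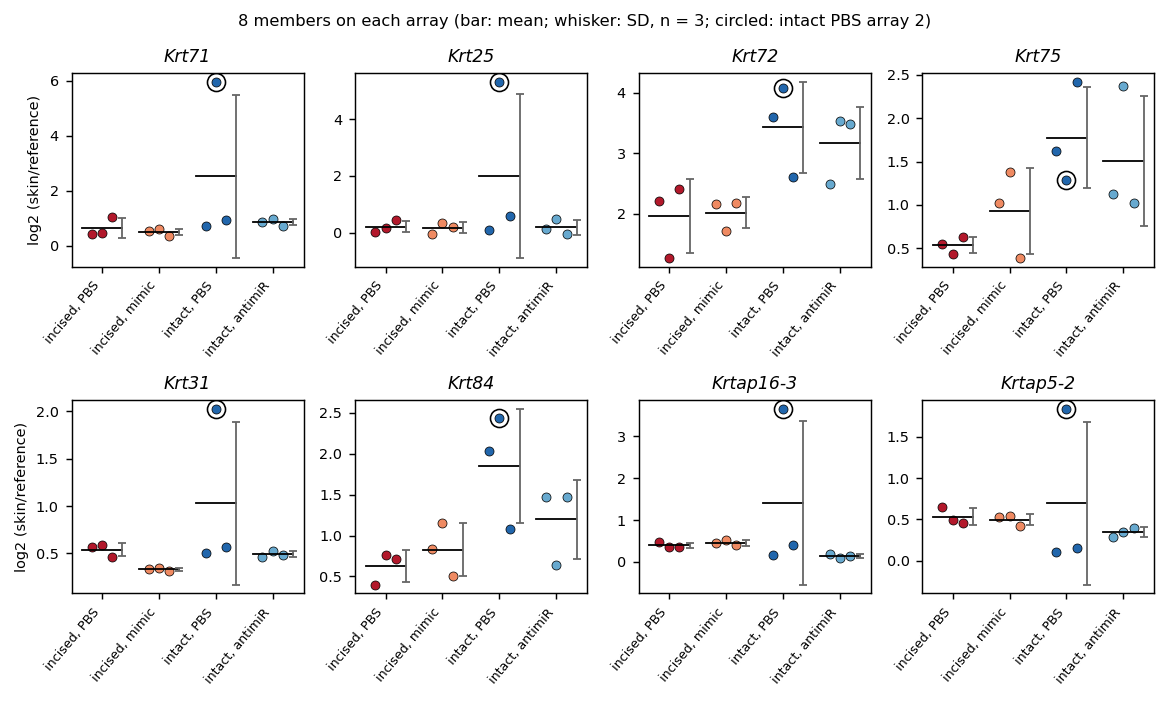
Log2 ratios of skin over reference for 8 members on each array, by group, with the mean (bar) and SD (whisker, n = 3); intact PBS array 2 is circled, and each panel has its own vertical scale. Krt71, Krt25, Krt31, Krtap16-3 and Krtap5-2 are high on that array alone, whereas Krt72 and Krt84 are lower on the 3 incised PBS arrays than on all 3 intact PBS arrays and Krt75 is highest on another array.

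Most of the other listed genes of the shaft and root sheath followed the members on intact PBS array 2. This list was chosen with earlier results of these data known, so its values are a description and not independent support. Of 10 such genes listed, 9 were measured, 7 were highest on that array, and their median there was 2.58, against -0.40 to 0.22 on the other 11 arrays. Tchh, which encodes trichohyalin, the protein of inner root sheath and medulla granules, read 7.60 on that array and 1.53 to 2.99 on the others. Prr9 read 4.58 against at most 1.62, and S100a3, a calcium-binding protein of the hair cuticle, read 2.37 against at most -0.20. Padi3, the enzyme that citrullinates trichohyalin, read 0.80 against at most -1.38. Among the 50 probes highest on intact PBS array 2 relative to the other 2 intact PBS arrays, 19 were members, and 21 were among the top 100. With RIKEN and predicted genes left out, the 10 named genes other than members that led this order were Tchh, Prr9, Saa2, Vsig8, Padi3, Olfr18, S100a3, Fbp1, Crym and Fzd9. The order compares the intact PBS arrays only. Saa2, for one, read 4.95 on intact PBS array 2 and 6.07 on antimiR array 3.

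The medians of lists for other parts of the follicle lay within the range of the other arrays, while single genes did not. Hair matrix regulators (11 of 12 measured) had a median of 0.09, within the range of -0.37 to 0.34 on the others. Of these, 2 were highest there, Ovol1 at 4.18 against at most 3.78 and Foxn1, a transcription factor needed for the hair shaft, at 1.51 against at most 1.30. Gata3, a transcription factor of the inner root sheath and the brightest of the list, read 2.23 within 1.24 to 3.02, and Lef1 read -1.81 within -2.25 to -1.78. Bulge and hair germ genes (9 of 9) had -0.02 within -0.54 to 0.53. Cd34, a marker of bulge stem cells, was highest there at 1.99 against 1.02 to 1.95, whereas Sox9 and Lhx2, transcription factors of follicle stem cells, were lowest. Sox9 read -0.25 against 0.60 to 1.68, and Lhx2 read 0.97 against 1.01 to 3.39. Dermal papilla genes (5 of 7) had 0.06 within -0.14 to 0.31, melanocyte genes (9 of 12) -0.10 within -0.44 to 0.44, and proliferation genes (12 of 12) -0.06 within -1.38 to 0.77. Corin and Sox2, which mark the dermal papilla, and Shh, a signal of the growing matrix, had no kept probe. Sebaceous gland genes (9 of 9) had 0.00 within -0.52 to 0.47 and genes of the epidermis between follicles (8 of 8) had 0.19 within -0.44 to 0.32. Skeletal muscle genes (8 of 8) had 0.30, above their range of -0.52 to 0.25 on the other arrays, and 5 of the 8 were highest there. The part of muscle in the members' values was not tested. Lists for fibroblasts (0.27), adipocytes (0.02), endothelium (-0.03), wound keratins (-0.01), macrophages (-0.22) and neutrophils (-0.65) lay within their ranges on the others. The hair cycle phase of that skin was not recorded in the labels and was not tested.

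**Figure D4:**
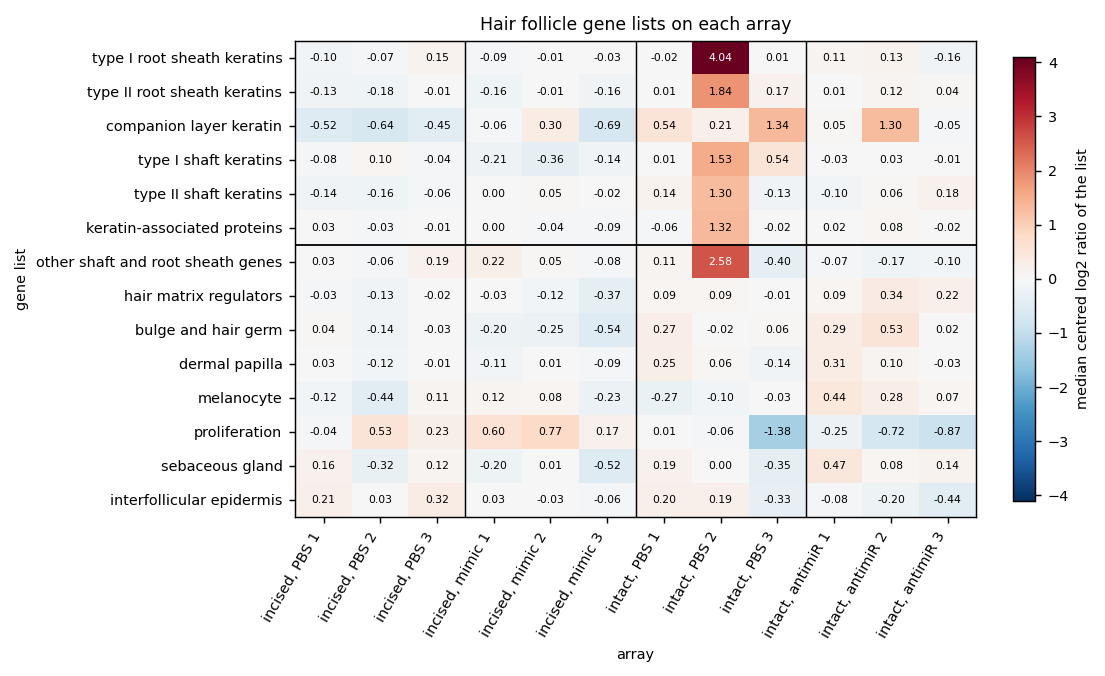
Median of each gene list on each array, after centring every probe on its median over the 12 arrays (log2); the 6 rows above the line are classes of members and those below it are lists of other follicle and skin genes. On intact PBS array 2 the member classes other than the companion layer keratin lie between 1.30 and 4.04 and other shaft and root sheath genes at 2.58, while the remaining lists drawn lie between -0.10 and 0.19.

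Incised against intact skin under PBS asks what the wound does without an oligonucleotide. The members had a median log2 fold change of -0.53 in incised skin relative to intact skin, with 49 of 52 below 0, against a median of 0.00 (-0.0014) over all probes. The members passing the limma test across all probes (Benjamini-Hochberg adjusted p below 0.05) were Krt72 and Krt84, both lower, that is 2 of 52, and 5.6% of all probes were called lower. No member was called higher, where 9.58% of all probes were. Krt72 fell by 1.47 on the log2 scale (SE 0.41, adjusted p = 0.035), from 3.43 ± 0.75 (SD, n = 3 arrays) in intact to 1.97 ± 0.61 in incised skin. Krt84 fell by 1.22 (SE 0.33, adjusted p = 0.031 by limma), from 1.85 ± 0.70 to 0.63 ± 0.20. The reference channel was well above background on 2 of the 12 arrays for Krt84 and on all 12 for Krt72. Both calls were lost with the skin channel alone, and also when slide entered the model. No slide held both incised PBS and intact PBS arrays, and the slide of the incised PBS arrays was linked to the others through mimic arrays only. With slide as a fixed block the adjusted p by limma was 0.24 for Krt72 and 0.23 for Krt84, at log2 fold changes of -2.08 and -1.62, and 0.0382% of all probes were called higher and 0.00694% lower. With slide as a random block the adjusted p was 0.058 for Krt72 and 0.052 for Krt84, with 7.13% of all probes called higher and 3.62% lower. Krt75 had a log2 fold change of -1.24 (SE 0.38) and an adjusted p of 0.0505 by limma, just outside the threshold. In 10 members all 3 incised PBS arrays lay below all 3 intact PBS arrays (15.5% of all probes did), and in 1, Krtap19-4, they lay above (19.2%). Without intact PBS array 2 the same 10 members lay below (20.7% of all probes) and 5 above (23.9%), namely Krtap19-4, Krt27, Krt73, Krtap5-1 and Krtap5-2.

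Without intact PBS array 2 the members' median was -0.06, with 29 of 52 below 0. Krt72 then had a log2 fold change of -1.14 (adjusted p = 0.096 by limma) and Krt84 -0.93 (adjusted p = 0.082), so neither passed. Called without it were Krt75, with a log2 fold change of -1.48 (adjusted p = 0.039), Krtap17-1, with -0.52 (adjusted p = 0.036), and Krtap5-2, with 0.40 (adjusted p = 0.016), while 5.26% of all probes were called lower and 9.06% higher. Krtap17-1 was not well above background on any incised PBS array, so only an approximate bound can be given. By that bound Krtap17-1 was at least 2.68-fold higher in intact skin with all arrays and at least 1.38-fold without intact PBS array 2. Krt33a was likewise not above background on any incised PBS array and was called in neither fit. By the same bound it was at least 3.33-fold higher with all arrays and at least 1.065-fold without that array. Krt35, also not above background there, had a log2 fold change of -1.44 (SE 0.61, adjusted p = 0.13 by limma) with all arrays and -0.53 (adjusted p = 0.25) without it. The bound sets the mean of the bright group against, on each dim array, the higher of the probe's own value and the lowest signal well above background. Krtap17-1 and Krt33a were well above background on 2 of the 3 intact PBS arrays, intact PBS array 2 among them. A dim array thus enters their bright mean, and the bound is not strict.

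Krt71 shows how the array acts on a fold change. Its log2 fold change was -1.89 (SE 1.05, adjusted p = 0.25 by limma) with all arrays and -0.18 without intact PBS array 2 (adjusted p = 0.55). Its mean in intact skin under PBS was 2.53 ± 2.97 (SD, n = 3), an SD larger than the mean, against 0.64 ± 0.35 in incised skin.

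Over both treatments, 4 members had all 6 incised arrays below all 6 intact arrays, namely Krt28, Krt72, Krt33a and Krt82, while 5.32% of all probes did. None had them all above, which 7.75% of all probes did. Without intact PBS array 2 these 4 again lay below (6.95% of all probes), and Krtap5-2 lay above (8.98%). The gap lay between 0.86 and 0.99 for Krt28, 2.41 and 2.49 for Krt72, and -0.07 and -0.04 for Krt82, narrower than the spread within groups. For Krt33a it lay between 0.05 and 0.19. Krt33a was well above background on 0 incised PBS arrays and 1 mimic array. Krt82 was so on 1 incised PBS array, 0 mimic arrays and 0 antimiR arrays, so the order of both rests on dim values. The calls also moved when other arrays were left out. Without incised PBS array 1 or 2, 0 members were called lower, where 2.82% and 2.57% of all probes were. The count was 1 without incised PBS array 3 (2.74% of all probes lower) and 1 without mimic array 1 (4.43%). It was 4 without intact PBS array 1 (4.77%) and 7 without intact PBS array 3 (4.75%).

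**Figure D5:**
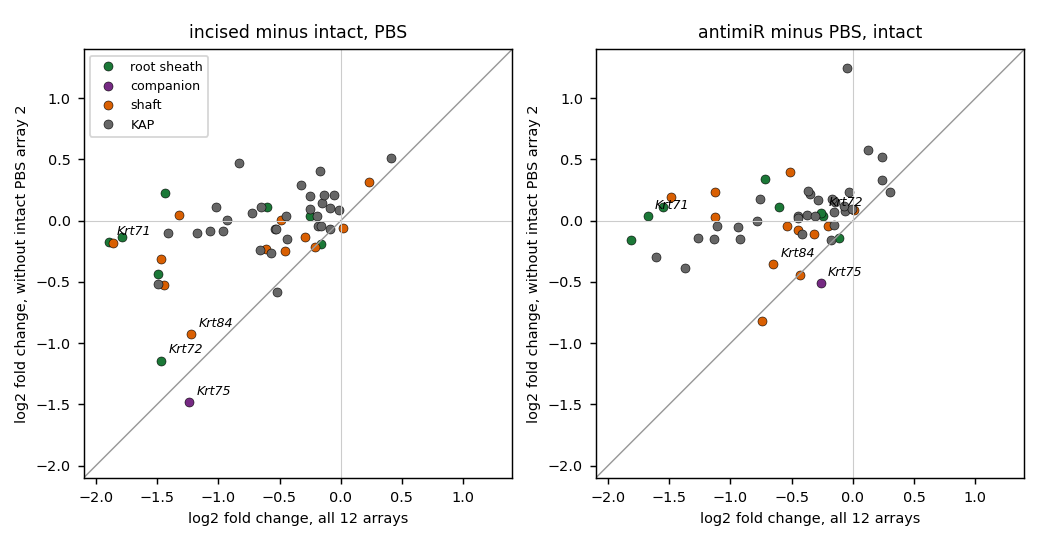
Log2 fold change of each of the 52 members with all 12 arrays (horizontal) and without intact PBS array 2 (vertical), for incised minus intact skin under PBS (left) and antimiR minus PBS in intact skin (right); the diagonal marks equal values and KAP stands for keratin-associated protein. Most members lie far from the diagonal near 0 on the vertical axis, as Krt71 does (-1.89 and -0.18, left), whereas Krt72, Krt84 and Krt75 keep values of -1.14, -0.93 and -1.48 without the array.

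AntimiR against PBS in intact skin asks what follows from inhibiting miR-29 in unwounded skin. None of the 52 members passed the test, where 11.1% of all probes did (limma, adjusted p below 0.05 in either direction), and 3 members had an unadjusted p below 0.05. The members' median log2 fold change was -0.39, with 47 of 52 below 0, and 0.04 without intact PBS array 2, with 21 of 52 below 0. Without that array no member passed either (8.4% of all probes did). For Krt71 the log2 fold change was -1.67 (SE 1.05, adjusted p = 0.36 by limma) with all arrays and 0.04 without that array (adjusted p = 0.92). The smallest adjusted p, 0.112, was that of a Krt36 probe at a log2 fold change of -0.74 (SE 0.27), which read 0.28, 0.44 and 1.06 with PBS and -0.22, -0.03 and -0.19 with antimiR. The skin signal of this probe was not well above background on any antimiR array. By the approximate bound described above, its mean skin signal was 1.66-fold lower there or more (1.68-fold without intact PBS array 2). That bound is for this probe only and takes no account of the spread between arrays, and the fold change did not pass the test. The other kept Krt36 probe was well above background on 2 antimiR arrays. It had a log2 fold change of -0.43 (SE 0.17, adjusted p = 0.14 by limma). All 3 antimiR arrays lay above all 3 PBS arrays in 1 member (Krtap10-10, 12.7% of all probes did). They lay below in 2 (Krt74 and the Krt36 probe of smallest adjusted p, 13.7%). Without intact PBS array 2 they lay above in 8 members (17.1% of all probes) and below in the same 2 (17.8%). Within the slide that held all 3 antimiR arrays and intact PBS array 3, the members' median difference was 0.07.

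The mimic against PBS in incised skin compared no array that stood apart for these genes. The model shared 1 estimate of spread over all 12 arrays, however, so intact PBS array 2 still entered the test. For Krt71 the SE of this comparison was 1.05 with that array and 0.16 without it. None of the 52 members passed the test, 0.503% of all probes did, and 1 member had an unadjusted p below 0.05. The members' median log2 fold change was -5e-04, with 26 above and 26 below 0. The smallest adjusted p, 0.41, belonged to Krtap19-4, at -0.38 (SE 0.17). It read 1.10, 1.16 and 1.22 with PBS and 0.95, 0.87 and 0.53 with mimic, groups that did not overlap. Without intact PBS array 2 the smallest adjusted p over the members was 0.23 (limma), for Krt31 at -0.21. All 3 mimic arrays lay above all 3 PBS arrays in 3 members (11.9% of all probes did) and below in 6 (11%), Krt31 and Krt33a among the latter and Krt35 and Krt86 among the former. Krt33a and Krt35 were well above background on 0 incised PBS arrays and 1 mimic array each, so their order rests on dim values. Mimic array 1, the only one on the slide of the incised PBS arrays, differed from them by a median of 0.05 over the members.

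The mimic effect minus the antimiR effect was tested as a difference, over arrays that share no control between the 2 effects. None of the 52 members passed (1.55% of all probes did; limma), and none had an unadjusted p below 0.05. The median over the members was 0.34 with all arrays and -0.05 without intact PBS array 2, when again none passed (1.43% of all probes). With 3 arrays a group, a p that misses the threshold does not show that the values are alike.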

How the data were processed

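Spot intensities of 12 Agilent two-colour arrays were deposited as scanner output; Agilent Feature Extraction 11.5.1.1 had subtracted background and dye-normalized its processed intensity and log10 ratio, per the file headers. A table of log2 ratios by gene name was also deposited by the authors; what was done to make it is not given in the sources used here, and its columns run as skin over reference. Mean intensities were background-corrected (normexp, offset 50), normalized by loess within arrays (control spots at weight 0) and not scaled between arrays, with limma 3.58.1 in R 4.3.3. Outlier spots (308 to 711 an array) were left out and spots of a probe averaged. Probes were kept where the skin channel was well above background on 3 or more arrays, for at least 0.5 of their spots. One model over all 12 arrays gave 4 contrasts, with Benjamini-Hochberg adjustment over all kept probes and a threshold of 0.05; it recovered changes planted in simulated data. Precision is limited by 3 arrays a group. Probe coordinates are mm9, per the file headers, with no annotation of exons used here. Accessions of 84 of the 90 probes matched RefSeq. Members and gene lists were chosen with earlier results of these data known. Named were called members, the 3 brightest of a class, the 3 widest and narrowest ranges, and the brightest listed genes; others are named for their values. A planned grouping by amino acid composition was not made, since protein sequences were not used here; gene clusters replaced it. Replicate numbers did not pair the samples.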

Additional observations from a re-analysis of the deposited data

How the results depend on the processing

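Settings were the background correction, the program's own processed signals, scaling between arrays, the skin channel alone, the deposited table, filters on dim probes, 1 probe per gene, only the groups compared, the variance model, array weights, the slide, the replicate number and leaving out each array. Over 26 alternatives the mimic gave 0 members called each time, and the difference of effects 0 over 25. For incised against intact skin the count of 2 became 0 with Cy5 alone, with slide as a fixed block and with slide as a random block, and 1 with the deposited table and with only the groups compared; leaving out 1 array gave 0 to 7 (2.57% to 5.43% of all probes lower). For the antimiR the count of 0 became 1, higher, with slide as a fixed block (5.42% of all probes higher); leaving out 1 array gave 0 to 2, lower (3.48% to 6.9% of all probes). The fixed slide block leaves few comparisons within slides, and the cause of the other moves was not tested. The replicate block gave 1 member called for incised against intact skin, lower (4.72% of all probes). The replicate numbers share only a number: deviations of same-numbered samples correlated from -0.43 to 0.29, and 4 of 18 samples correlated best with their own number. Krt72 had adjusted p-values of 0.013 to 0.24 and Krt84 of 0.0056 to 0.23 over the alternatives, all with log2 fold changes below 0. The log2 fold change turned sign for Krtap5-2, incised against intact, with Cy5 alone (0.33) and without intact PBS array 2 (range without 1 array -0.46 to 0.404), and for Krt71, antimiR against PBS, without that array (range -2.59 to 0.0401). Medians of the members moved less than the spread between arrays (SD 0.63 for the comparisons with intact PBS skin), which that array widens. Probes below background bound what can be seen: 26 of the 52 members had the reference well above background on all 12 arrays, and 4 on none.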
